A study of Homo sapiens with 11 samples.

Results

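The genes described here are 10 enzymes and enzyme subunits of the methionine cycle, of transsulfuration and of the first step of glutathione synthesis, namely CBS, CTH, MAT2A, MAT2B, AHCY, MTR, MTRR, MTAP, GCLC and GCLM. They were picked by symbol from 28152 gene symbols, and all 10 were in the count table. The choice was made with the difference between evexomostat and vehicle tumours in view, so this difference is given for them as a description and no test is drawn from it. RNA was sequenced from tumours that grew in the mammary fat pad of female athymic nude mice after injection of BT-474 cells, per the labels, a breast cancer line of human origin said to carry hormone receptors and HER2. All animals of both groups carried a pellet releasing estradiol (0.72 mg over 90 days), and a tumour could enter the study once it was larger than 95 cubic millimetres. There were 6 tumours from animals given vehicle, 5% mannitol in water, and 5 from animals given evexomostat (SDX-7320) at 12 mpk in the same solution, both injected under the skin every 4 days, with day 33 as the labelled time. Evexomostat inhibits methionine aminopeptidase 2, which removes the first methionine from new proteins. The age of the mice was not given in the sources used here, and the line and estradiol were shared by both groups.

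The methionine cycle turns methionine into S-adenosylmethionine, the methyl donor of most methylation reactions, and the spent donor is hydrolysed to homocysteine. Homocysteine stands at a branch: it is methylated back to methionine, or it is joined to serine by CBS and leaves through transsulfuration as cysteine. Cysteine is in turn used for glutathione, the main small thiol of the cell, and the glutamate-cysteine ligase that starts this synthesis is made of GCLC and GCLM. CBS also makes hydrogen sulfide, and liver and brain are tissues known for it.

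Promoter sequences are shown for CBS, whose groups lay farthest apart, and for GCLC and GCLM, the pair of subunits whose means were both lower under evexomostat, a choice made after their values were seen. Each is the 150-base stretch upstream of the first start site listed by RefSeq (GRCh38.p14), ending before bases annotated as exon or at the end of a match, on the minus strand and written 5′ to 3′, at chr21:43076379-43076528 for CBS, chr6:53545130-53545279 for GCLC and chr1:93909456-93909605 for GCLM. Capitals mark letters of the antioxidant response element core, TGACNNNGC read on either strand, the element to which NRF2 binds.

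CBS: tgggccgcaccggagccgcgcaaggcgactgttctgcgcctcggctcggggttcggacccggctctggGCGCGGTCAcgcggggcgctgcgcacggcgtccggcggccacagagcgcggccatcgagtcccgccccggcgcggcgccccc

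GCLC: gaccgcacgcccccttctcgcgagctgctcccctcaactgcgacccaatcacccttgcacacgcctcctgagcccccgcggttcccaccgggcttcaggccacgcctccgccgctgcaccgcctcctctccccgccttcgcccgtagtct

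GCLM: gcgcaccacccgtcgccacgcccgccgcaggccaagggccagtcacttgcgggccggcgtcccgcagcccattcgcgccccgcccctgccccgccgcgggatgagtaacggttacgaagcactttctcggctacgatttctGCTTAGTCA

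In the windows of 250 bases upstream of a start site, this core was found for 2 of the 9 genes with a RefSeq entry, CBS and GCLM, against 10.9% of 35114 such windows. The match began 83 bases before the start site in CBS and 34 bases before it in GCLM, and both lay on the strand opposite to the gene. GC boxes (GGGCGG, either strand), which Sp1 binds, were found for 8 of the 9 genes, against 42.6% of all windows. The letters TGATGNAA of ATF4 composite sites were found for 0 of 9 (3.14% of all windows), CACGTG for 0 (6.35%) and ACGTG, which overlaps CACGTG, for 0 (18.5%). A gene with several listed start sites had a window for each and counted as found if any of them matched. Counts of genes and shares of windows are thus unlike measures, and nothing is read from setting them side by side. MTRR was not matched. Bases farther upstream were not searched, so a gene with no match here may carry the element elsewhere. The submitters' processing notes name GRCh37 and hg19, so these coordinates are those of the reference and not of the count table.

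Library totals ranged from 22808033 to 39249329 counts, and the 10 genes had between 55 counts (CTH) and 20236 counts (MAT2A) in a library. Vehicle replicate 001 was unlike the rest: its top 100 genes took 23.9% of the counts and its ribosomal protein genes 13.5%, while the other 10 libraries had 16.2% to 17.9% of counts in their top 100 genes. Ribosomal protein genes took 4.57% to 6.55% in the other 5 vehicle libraries and 6.68% to 8.24% under evexomostat, so this share differed between the groups without overlap apart from vehicle replicate 001, and its part in the results below was not tested. Vehicle replicate 001 held the highest value of MAT2B and GCLM and the lowest of MAT2A, MTR and MTRR. The 10 luminal markers summed to 337.7 to 755.9 RPM (reads scaled to a common library total) under vehicle and 477.4 to 650.3 RPM under evexomostat. Most of this came from KRT8 (164.4 to 536.6 RPM over all libraries) and KRT18 (98.7 to 195.7 RPM), ERBB2 lay between 23.0 and 65.3 RPM, and GATA3 and EPCAM reached 11.05 and 4.64 RPM. The other 5, ESR1, PGR, FOXA1, KRT19 and CDH1, stayed under 2 RPM in all libraries. ESR1 and PGR encode hormone receptors and reached 0.60 and 0.14 RPM at most, low for a line said to carry such receptors. ERBB2 encodes HER2, and its highest value, 65.3 RPM, was below the lowest of KRT18, 98.7 RPM. Whether this is the level of a line said to carry HER2 was not tested. The identity of the line was not tested. Skeletal muscle markers summed to 1.75 to 19.7 RPM under vehicle and to 1.84 to 488 RPM under evexomostat, where evexomostat replicate 005 had the 488 and the next library 55.6, and 6 of 6 tested muscle markers had a fold change above 0. None of these 6 passed in edgeR's test (5 at an unadjusted p under 0.05), and 1 did with DESeq2, which called 3.9% of all tested genes. In evexomostat replicate 005 ACTA1, MYH1, MYH2, MYH4 and TNNC2 had 146.9, 104.4, 78.0, 80.3 and 73.5 RPM, and MYBPC1 had 3.97. The other muscle markers, MYLPF, CKM, TNNT3 and MB, reached 0.22, 0.30, 0.29 and 0.88 RPM at most in any library. Fibroblast markers summed to 392 to 2065 RPM under vehicle and 500 to 1124 RPM under evexomostat, a sum carried by COL3A1 (182.8 to 1757 RPM over all libraries) and COL1A1 (38.5 to 253.4 RPM), while DCN reached 1.43, LUM 4.04 and PDGFRA 5.51 RPM at most. Macrophage markers summed to 54.4 to 89.7 and 63.4 to 77.2 RPM, a sum carried by CD68 (19.55 to 56.69 RPM over all libraries) and LYZ (18.55 to 37.09 RPM). CSF1R, CD163, ADGRE1 and PTPRC reached 2.14, 1.64, 0.11 and 3.20 RPM at most. Markers of adipocytes (9.34 to 20.6 and 9.47 to 19.1 RPM), endothelium (8.79 to 22.9 and 9.88 to 14.1 RPM) and hepatocytes (3.17 to 7.65 and 5.70 to 9.56 RPM) were low in both groups. The hepatocyte sum came mostly from BHMT (2.38 to 7.54 RPM over all libraries) and MAT1A (0.11 to 2.69 RPM), which are also in the lists below. ALB, APOA1 and TTR reached 0.57, 0.09 and 0.04 RPM at most. The part of host cells in the values below was not tested, and how mouse reads were handled is not given in the sources used here.

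CBS, the enzyme that commits homocysteine to transsulfuration, was higher in every evexomostat tumour than in any vehicle tumour, 2.24-fold by the group means, while CTH, the next enzyme, was not. Both subunits of glutamate-cysteine ligase had lower means under evexomostat without passing the threshold, with log2 fold changes of -0.64 for GCLM and -0.55 for GCLC. The genes of the methionine cycle itself, MAT2A, MAT2B, AHCY, MTR and MTRR, and the salvage enzyme MTAP differed by less than 0.3 on the log2 scale in either direction. In edgeR's quasi-likelihood test over 16653 genes, 1 of the 10, CBS, was past the adjusted threshold of 0.05, where 0.606% of all tested genes were. The groups did not overlap in 1 of the 10, again CBS, against 2.97% of all tested genes, and without vehicle replicate 001 in 3, CBS, MTR and GCLC, against 8.33%. Fold changes were above 0 in 5 and below 0 in 5, with a median of -0.03 against -0.04 over all tested genes. Nothing is read from these shares, since the genes were chosen with this contrast known. Tumours were sequenced whole, so fewer cells of a type and less RNA per cell cannot be told apart.

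**Figure D1:**
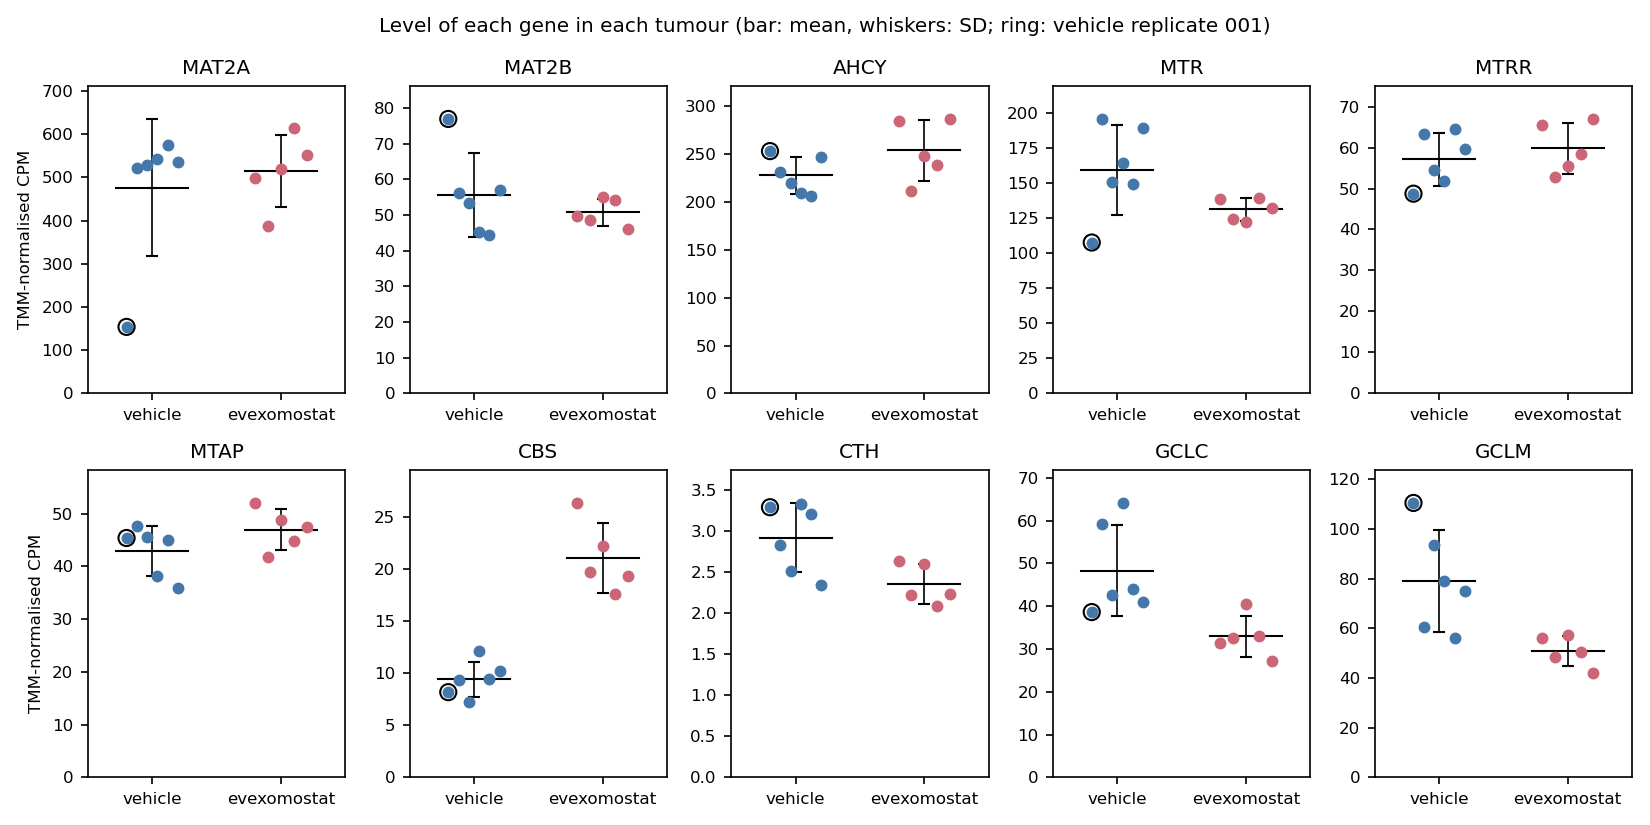
CPM after TMM scaling between libraries (counts on a shared library total, linear axes from 0) of each gene in 6 vehicle and 5 evexomostat tumours, 1 point per tumour, with the mean as a bar, the SD as whiskers and vehicle replicate 001 ringed. The CBS groups are apart, at 7.21 to 12.1 and 17.6 to 26.4 CPM, and the ringed tumour lies far below the others in MAT2A.

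Levels are given from here on as TMM-normalised CPM, in the order of replicates 001, 003, 004, 005, 006 and 007 for vehicle and 002, 003, 004, 005 and 007 for evexomostat where all are listed. In vehicle tumours CBS had 8.19, 9.31, 7.21, 12.1, 9.42 and 10.2 CPM. In evexomostat tumours it had 26.4, 19.7, 22.2, 17.6 and 19.4 CPM. The lowest evexomostat tumour, replicate 005, was thus above the highest vehicle tumour, also replicate 005. The means were 9.41 ± 1.69 CPM (SD, n = 6) and 21.1 ± 3.39 CPM (SD, n = 5), and the log2 fold change was 1.16 (SE 0.16). It lay between 1.07 and 1.25 when each library was left out in turn, and was 1.13 without vehicle replicate 001. It was 1.22 without evexomostat replicate 005, the library with the highest sum of muscle markers. The authors' deposited table lists 1.25 for it. GRCh38 annotates a near-identical copy of CBS, CBSL, while the submitters name GRCh37 and hg19 for the counts. Whether such a copy had a part in the CBS counts was not tested. CBS was past the adjusted threshold in 13 of 17 alternative fits, DESeq2 and limma-voom with quality weights among them. It was not past it in edgeR's fits without evexomostat replicate 002, 005 or 007 or with a block on the replicate number. These passes are given as a description only.

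CTH, which splits cystathionine into cysteine, was the least abundant of the 10. Vehicle tumours had 3.30, 2.84, 2.52, 3.34, 3.21 and 2.35 CPM. Evexomostat tumours had 2.64, 2.23, 2.61, 2.09 and 2.24 CPM. All 5 of these were below the vehicle median of 3.03, but they overlapped the vehicle range. On the log2 scale the change was -0.31 (SE 0.18), on 55 to 124 counts a library. The fold changes of CBS and CTH, successive steps of transsulfuration, were thus of opposite sign.

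A ratio of counts within a library does not depend on how libraries are scaled. CBS had 4.75 to 7.60 counts for every 100 of MTR, which competes with it for homocysteine, under vehicle, and 12.6 to 19.0 under evexomostat. The mean ratios were 6.03 ± 1.26 (SD, n = 6) and 16.1 ± 2.61 (SD, n = 5), and the groups did not overlap. For every 100 counts of CTH there were 248.5 to 434.4 of CBS under vehicle and 846 to 1000 under evexomostat, again with no overlap. These ratios rest on the same CBS counts and are no independent measure of it.

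**Figure D2:**
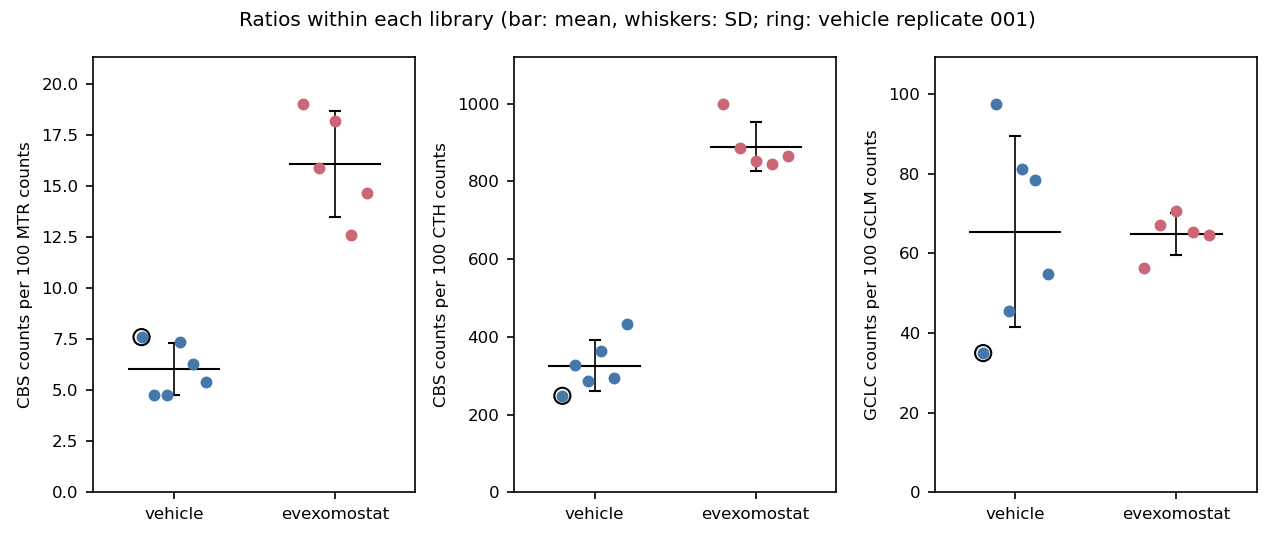
Counts of the first gene per 100 counts of the second within each library (linear axes from 0), 1 point per tumour, with the mean as a bar, the SD as whiskers and vehicle replicate 001 ringed. CBS against MTR and against CTH separates the groups, while GCLC against GCLM has means of 65.5 under vehicle and 64.8 under evexomostat.

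GCLM, the modifier subunit of glutamate-cysteine ligase, had 110.4, 60.7, 93.5, 78.9, 56.1 and 74.9 CPM in vehicle tumours. Evexomostat tumours had 55.9, 48.5, 57.2, 50.5 and 42.2 CPM. Of the 5, 4 were below every vehicle tumour, and evexomostat replicate 004 was above vehicle replicate 006. The means were 79.1 ± 20.4 CPM (SD, n = 6) and 50.9 ± 6.06 CPM (SD, n = 5). On the log2 scale the change was -0.64 (SE 0.18), and -0.51 without vehicle replicate 001, the highest of the group.

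GCLC, the catalytic subunit, had 38.6, 59.2, 42.6, 64.1, 44.0 and 41.0 CPM in vehicle tumours. Evexomostat tumours had 31.4, 32.6, 40.5, 33.1 and 27.2 CPM. Again 4 of 5 were below every vehicle tumour, and the exception was evexomostat replicate 004, above vehicle replicate 001 only. Its log2 fold change was -0.55 (SE 0.16), and -0.60 without vehicle replicate 001. Neither subunit was past the adjusted threshold in edgeR's fit of all 11 libraries. GCLC was past it in 3 of 17 alternative fits, namely DESeq2, limma-voom with quality weights and the fit without vehicle replicate 001, and 3.9%, 6.36% and 5.22% of all genes were called in them. GCLM was also past it in 3, the first pair of these and the fit of 8 libraries that share replicate numbers, where 4.42% were called. As with CBS, these passes are given as a description only.

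The balance of the subunits varied more among vehicle tumours than between the groups. GCLC had 34.97, 97.6, 45.6, 81.3, 78.5 and 54.8 counts per 100 of GCLM under vehicle, and 56.2, 67.1, 70.8, 65.5 and 64.6 under evexomostat. Vehicle replicates 001 and 004, with the lowest ratios, were the pair with the highest GCLM. The means were 65.5 ± 24.0 (SD, n = 6) and 64.8 ± 5.36 (SD, n = 5).

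MAT2A, the catalytic subunit of the S-adenosylmethionine synthetase outside liver, was the most abundant of the 10. Vehicle tumours had 154.0, 521.9, 529, 542.5, 576 and 534.7 CPM. Evexomostat tumours had 498, 388.2, 518.7, 614.8 and 551.3 CPM. Vehicle replicate 001 lay far under every other library, and the other 5 vehicle tumours fell within a narrow band. The log2 fold change of 0.11 (SE 0.27) turned to -0.07 without that tumour, so its sign rested on 1 library. In the reference annotation MAT2A shares exon bases with GGCX, which is also in the count table.

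MAT2B, its regulatory partner, had 44.5 to 76.9 CPM under vehicle and 46.1 to 55.2 CPM under evexomostat, with medians of 54.7 and 49.8 CPM. Its highest value belonged to vehicle replicate 001, the tumour lowest in MAT2A, which had 200.3 counts of MAT2A per 100 of MAT2B against 799.9 to 1296 in the other 10 libraries. Its log2 fold change was -0.13 (SE 0.14), and -0.01 without that tumour. AHCY, which hydrolyses S-adenosylhomocysteine to homocysteine, had 205.7 to 253.1 CPM under vehicle and 211.5 to 286.7 CPM under evexomostat, where 2 of 5 tumours were above every vehicle tumour. Its log2 fold change was 0.16 (SE 0.12). The reference annotation names 6 pseudogenes after AHCY and 2 after MTAP, which could share reads with them, and 0 of these are in the count table. AHCY, MTAP and GCLC share exon bases only with genes that are not in the count table. The coefficient of variation of AHCY was 8.54% under vehicle and 12.5% under evexomostat. The coefficient was larger under evexomostat in AHCY alone of the 10, but without vehicle replicate 001 in 3, AHCY, MAT2A (3.90% and 16.2%) and MTRR (9.35% and 10.4%).

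MTR, the cobalamin-dependent methionine synthase, had 107.7, 195.9, 150.9, 164.2, 149.3 and 189.2 CPM in vehicle tumours. Evexomostat tumours had 138.5, 124.3, 122.1, 139.7 and 132.1 CPM. They lay below 5 of the 6 vehicle tumours and above vehicle replicate 001, whose value was the lowest of all. On the log2 scale the change was -0.28 (SE 0.15), and -0.37 without that library, when the groups no longer overlapped. MTRR, the reductase that reactivates MTR, had 48.7 to 64.5 CPM under vehicle and 52.8 to 67.0 CPM under evexomostat. Its log2 fold change was 0.07 (SE 0.12), and in the reference annotation it shares exon bases with FASTKD3 and C5orf49. MTAP, which returns the methylthio group left over from polyamine synthesis to methionine, had 36.0 to 47.7 CPM under vehicle and 41.7 to 52.1 CPM under evexomostat, with a log2 fold change of 0.13 (SE 0.11).

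**Figure D3:**
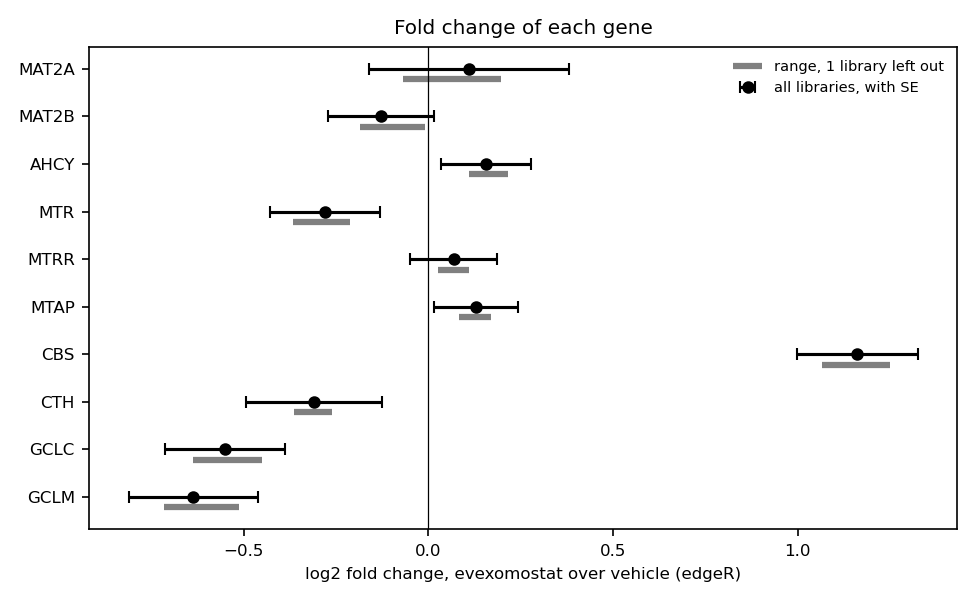
Log2 fold change of each gene, evexomostat over vehicle, from edgeR's fit of all 11 libraries (points, with the SE as whiskers), and the range of the fold change when each library was left out in turn (grey bars). CBS lies at 1.16, GCLC and GCLM at -0.55 and -0.64, and only the grey bar of MAT2A, from -0.07 to 0.20, crosses 0.

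Per kilobase of the longest RefSeq-matched GENCODE transcript, which need not be the form expressed here, MAT2A stood first under vehicle with 169 ± 56.4 CPM per kb (SD, n = 6), followed by AHCY with 96.2 ± 8.22 and MAT2B with 24.9 ± 5.28. MTRR (17.4 ± 1.95), GCLM (16.3 ± 4.20), MTR (15.2 ± 3.03) and GCLC (12.7 ± 2.79) each overlapped the next within their SDs. MTAP had 8.76 ± 0.963, CBS 3.61 ± 0.648 and CTH 1.43 ± 0.207 CPM per kb, each apart from its neighbours by more than their SDs. Under evexomostat CBS reached 8.08 ± 1.30 CPM per kb (SD, n = 5), within its SD of GCLC at 8.64 ± 1.26, and CTH stayed last at 1.15 ± 0.121.

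The other genes of these pathways came from 7 lists by role, with 69 genes in the table and 67 tested. In edgeR's test 2 of the 67 passed the adjusted threshold, both lower under evexomostat, and 0 were higher. Over all tested genes 0.432% passed as lower and 0.174% as higher. DESeq2 called 7 lower and 1 higher, where it called 2.7% of all tested genes as lower and 1.2% as higher. At an unadjusted p under 0.05 there were 18 of 67, against 13.4% of all tested genes, and the groups did not overlap in 4, namely SAT1, LMBRD1, GLRX and KYAT3, against 2.97%. Without vehicle replicate 001 they did not overlap in 7, against 8.33%. Of the 67, 39 had a fold change below 0 (55.4% over all tested genes), and the median was -0.06 against -0.04. The counts of each list below stand against the same shares of all tested genes. These are 0.606% for edgeR's adjusted test, 3.9% for DESeq2's, 13.4% for an unadjusted p under 0.05 and 55.4% for a fold change below 0.

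**Figure D4:**
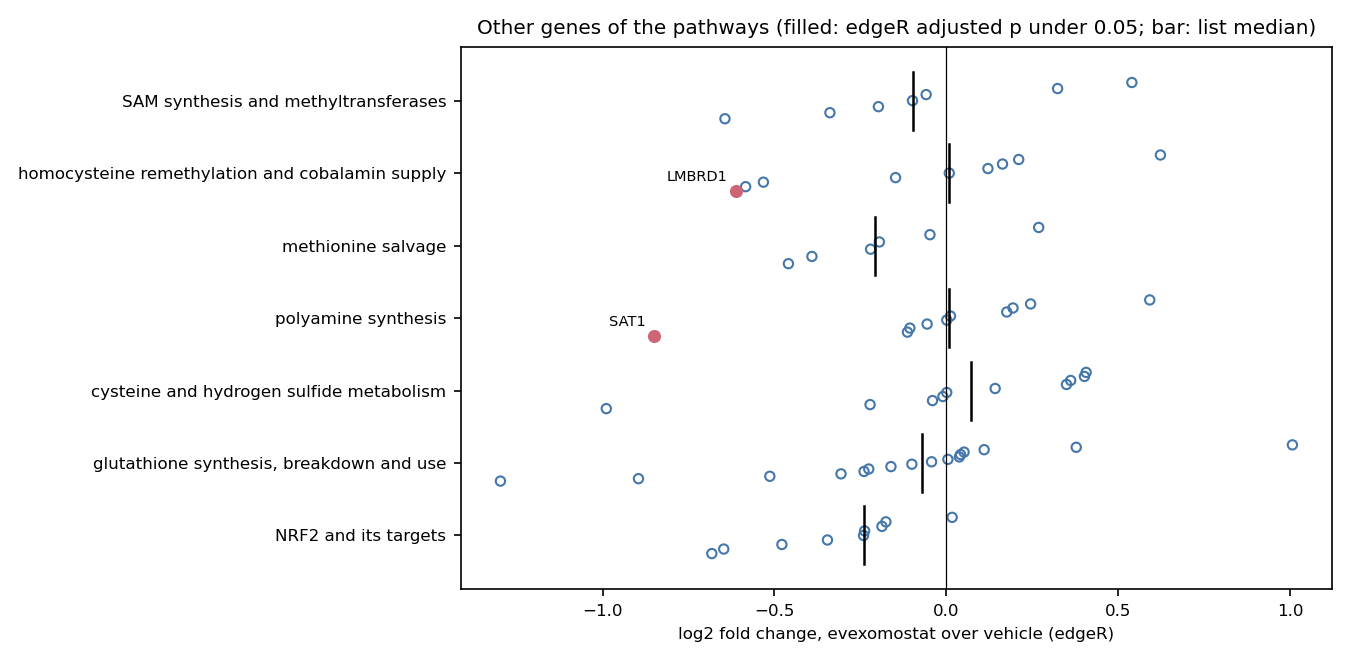
Log2 fold change (evexomostat over vehicle, edgeR) of each of the 67 other tested genes, 1 row per list, with genes past the adjusted threshold filled and named and the list median as a bar. LMBRD1 and SAT1 are the 2 filled points, both below 0, and the median of the NRF2 list is the lowest of the 7 at -0.24.

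SAT1, the acetyltransferase that starts polyamine breakdown, fell under evexomostat. Vehicle tumours had 267.1, 198.4, 149.3, 192.8, 168.4 and 228.8 CPM and evexomostat tumours 119.3, 124.9, 96.5, 89.1 and 126.7 CPM, with no overlap. On the log2 scale it fell by 0.85 (edgeR, adjusted p 0.0462, SE 0.17), and the adjusted p ranged from 3.35e-04 to 0.136 over 17 alternatives, passing in 9. Of the 11 fits without 1 library it passed in 3, those without vehicle replicate 001, 004 or 006. The other 9 genes of the polyamine list did not pass, and SRM, spermidine synthase, had 74.4 ± 8.37 CPM (SD, n = 6) and 88.2 ± 8.47 CPM (SD, n = 5).

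LMBRD1, which lets cobalamin, the cofactor of MTR, out of the lysosome, also fell. Vehicle tumours had 33.0, 26.3, 26.4, 32.0, 29.7 and 27.9 CPM and evexomostat tumours 16.4, 19.7, 20.6, 21.8 and 17.0 CPM, with no overlap. On the log2 scale it fell by 0.61 (edgeR, adjusted p 0.0492, SE 0.13). The adjusted p ranged from 1.74e-04 to 0.182 over 17 alternatives and passed in 5. Of the 11 fits without 1 library it passed in 1, that without vehicle replicate 001. The other 8 genes of the remethylation and cobalamin list did not pass. Among them BHMT2, which methylates homocysteine with S-methylmethionine, was abundant, at 315.9 ± 47.0 CPM (SD, n = 6) and 218.5 ± 44.0 CPM (SD, n = 5), a change of -0.53 on the log2 scale (edgeR, adjusted p 0.156, SE 0.16).

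In the glutathione list 0 of 16 genes passed in edgeR's test (4 with DESeq2, 1 higher and 3 lower, against 3.9% of all tested genes), 5 had an unadjusted p under 0.05 (13.4% of all), and 7 had a fold change above 0 and 9 below. CHAC1, which degrades glutathione, had 5.82 ± 2.21 CPM (SD, n = 6) and 11.7 ± 2.90 CPM (SD, n = 5), a change of 1.01 on the log2 scale (edgeR, adjusted p 0.0992, SE 0.26). It was past the threshold in 4 of 17 alternatives, among them the fit without vehicle replicate 001 (log2 fold change 1.22, edgeR adjusted p 0.0119). GLRX, a glutaredoxin that reduces protein thiols with glutathione, had 37.9 to 47.2 CPM in 5 vehicle tumours, 109.6 in vehicle replicate 007 and 13.6 to 34.3 CPM under evexomostat, a change of -1.30 on the log2 scale (edgeR, adjusted p 0.0714, SE 0.30). Its groups did not overlap, and it passed in 3 of 17 alternatives. Besides GLRX, DESeq2 called GSR and GGT5 lower, with changes of -0.51 (edgeR, adjusted p 0.134, SE 0.14) and -0.90 (edgeR, adjusted p 0.141, SE 0.26) on the log2 scale. GSS, which completes glutathione after the ligase, had 105.3 ± 9.20 and 108.4 ± 5.93 CPM, and SLC7A11, which imports cystine, had 96.7 ± 18.03 and 90.2 ± 19.7 CPM.

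Of the NRF2 list 0 of 9 genes passed in edgeR's test or with DESeq2, and 3 had an unadjusted p under 0.05. Fold changes were below 0 in 8 of 9 (55.4% over all tested genes), with a median of -0.24 against -0.04 over all tested genes. The list is not of targets alone, since it holds NFE2L2 and KEAP1, with log2 fold changes of -0.19 and -0.24. SRXN1, sulfiredoxin, had 198.2 ± 35.2 CPM (SD, n = 6) and 142.3 ± 27.8 CPM (SD, n = 5), a change of -0.48 on the log2 scale (edgeR, adjusted p 0.211, SE 0.16). HMOX1, heme oxygenase, had 53.5 ± 19.6 and 33.4 ± 8.74 CPM, a change of -0.68 on the log2 scale (edgeR, adjusted p 0.300, SE 0.28). NQO1, a classical NRF2 target, had 273.7 ± 74.6 and 242.3 ± 18.9 CPM, with 417.0 CPM in vehicle replicate 001. NFE2L2, the gene of NRF2 itself, had 124.6 ± 21.4 and 109.4 ± 8.69 CPM.

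The list of cysteine and hydrogen sulfide metabolism had 0 of 10 genes past the threshold in edgeR's test (1 with DESeq2) and 4 with an unadjusted p under 0.05. SQOR, which oxidises hydrogen sulfide in mitochondria, had 144.8, 87.8, 108.3, 88.0, 62.4 and 165.9 CPM in vehicle tumours. Evexomostat tumours had 39.1, 65.7, 64.3, 60.3 and 46.5 CPM. The groups overlapped only through vehicle replicate 006, the change was -0.99 on the log2 scale (edgeR, adjusted p 0.0870, SE 0.24), and it passed in 4 of 17 alternatives. SUOX, sulfite oxidase, had 10.2 ± 1.01 and 13.1 ± 1.40 CPM (0.36 on the log2 scale; edgeR, adjusted p 0.267, SE 0.14).

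Of the S-adenosylmethionine list 0 of 7 tested genes passed in edgeR's test (2 at an unadjusted p under 0.05), and of the salvage list 0 of 6 (0 at an unadjusted p under 0.05). DESeq2 called 0 in both lists. GAMT, which makes creatine, had 6.76 ± 1.88 and 9.83 ± 2.31 CPM, and NNMT, which methylates nicotinamide, 86.7 ± 43.1 and 55.4 ± 15.4 CPM. Vehicle replicate 001 had 165.2 CPM of NNMT, whose log2 fold change of -0.64 was -0.35 without it. In the salvage list MRI1 had 43.4 ± 6.86 and 52.3 ± 6.21 CPM, and APIP 47.8 ± 20.8 and 36.4 ± 2.65 CPM, with 88.4 CPM in vehicle replicate 001 and a log2 fold change of -0.39 that was -0.12 without it. MAT1A, the liver counterpart of MAT2A, had 3 to 83 counts a library, 0.11 to 2.59 CPM.

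The genes whose levels followed CBS most closely from tumour to tumour were sought after each group's mean had been removed, over 11 libraries and 13065 genes with a mean log2 CPM of at least 1. They were L3MBTL4 (Pearson's r 0.89), AURKAP1 (0.88), MLST8 (0.87), MAST1 (0.87) and ABCA11P (0.86). Without vehicle replicate 001 the values were 0.89, 0.87, 0.89, 0.86 and 0.85. L3MBTL4 differed between the groups in the direction opposite to CBS, with a log2 fold change of -0.53 and 5.60 ± 0.604 CPM (SD, n = 6) against 3.88 ± 0.319 CPM (SD, n = 5), and with the group means kept its correlation was -0.71. These are the highest of many correlations over few libraries that share scaling and depth, and are a description. Of the other 9 enzymes CTH came nearest to CBS, at r 0.50 and rank 735, and GCLC followed at 0.48 and rank 820.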

How the data were processed

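RNA from 6 vehicle and 5 evexomostat tumours was measured. The deposited count table holds raw counts per gene symbol. The submitters' processing notes name bcl2fastq 2.17, STAR 2.7.5c, featureCounts of Subread and edgeR with GRCh37 and hg19, and their settings, use of strand and handling of mouse reads are not given in the sources used here. The deposited RPM table holds counts scaled by the authors to the same total in each column. The authors' deposited comparison table holds log2 fold changes, p-values and adjusted p-values, and only its log2 fold change of CBS is printed.

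Columns were matched to tumours by the code in the sample description, and groups and replicate numbers came from titles. Genes were kept with filterByExpr (minimum count 10, minimum total 15), which left 16653 of 28152. Counts were scaled by TMM and compared with edgeR 4.0.16 (quasi-likelihood F-test, R 4.3.3, no covariates, Benjamini-Hochberg over all tested genes, two-sided, threshold 0.05). Standard errors were derived from the F statistics. Log2 CPM for correlations used a prior count of 2. No 2 libraries were duplicates (chi-square per degree of freedom 16.3 or more over 55 pairs). Labels do not say that tumours came from separate animals, so p-values measure the spread between these samples. Counts carry no molecular identifiers. Fits were tested on simulated data. Alternatives were relative log expression, DESeq2 1.42.0, limma 3.58.1 (voom with quality weights), no filter, a replicate block and leaving out each library.

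The 10 genes and the lists were chosen with earlier results of these data known. By rule, the text names these 10, every other listed gene past the threshold, the 2 genes of each list with the smallest p, and the 5 genes most like CBS. GSS, SLC7A11, NQO1, NFE2L2 and MAT1A were added for their roles after their values were seen, and GSR and GGT5 because DESeq2 called them. Promoters came from RefSeq tables and transcript lengths from GENCODE release 29.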

Additional observations from a re-analysis of the deposited data

Results flagged for a closer look

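In 48 comparisons of the highest and lowest tumour with the rest of its group (24 genes, 2 groups), 3 values stood apart, where chance gives about 2.4, and 2 of the 3 were in vehicle replicate 001. In vehicle replicate 001 MAT2A had 154.0 CPM, and the other vehicle tumours had 521.9 to 576. APIP, an enzyme of methionine salvage, had 88.4 CPM in the same tumour and 34.5 to 50.8 in the others. In vehicle replicate 007 GLRX had 109.6 CPM, and the rest of that group 37.9 to 47.2.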

How the results depend on the processing

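The 101 called genes (29 higher, 72 lower) became 649 under DESeq2 (200 higher, 449 lower), 1059 under limma-voom with quality weights (384 higher, 675 lower) and 733 on the 8 libraries with shared numbers with no replicate block (225 higher, 508 lower). They were 97 with relative log expression, 106 without a count filter and 107 with the replicate block. Leaving out each library gave 1 to 865 genes, 1 to 328 higher and 0 to 537 lower. The 0 came without evexomostat replicate 005, where edgeR gave 1833 genes with an unadjusted p under 0.05, and the 865 without vehicle replicate 001. Of the 67 other pathway genes, 2 were called. This became 8 with DESeq2, 9 with quality weights, 6 on the 8 libraries with no replicate block, 1 with the replicate block, 1 without a count filter and 0 to 5 with 1 library left out. The cause of these shifts was not tested.

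Both groups have a replicate 003, 004, 005 and 007. After the group means were removed, same-numbered libraries correlated at -0.27, 0.07, 0.05 and -0.10 across genes. The labels state no pairing, and these few correlations cannot exclude one that leaves no likeness in expression. With the replicate block CBS had a log2 fold change of 1.03, and 1.02 on the same libraries with no replicate block. Fold changes of 8 of the 10 enzymes kept their sign in all 17 alternatives. MAT2A kept it in 14 (-0.07 to 0.20) and MAT2B in 16 (-0.19 to 0.01). No fold change of the 10 moved by more than the SD between tumours. Leaving out 1 tumour can hardly move a group mean that far, and an outlying tumour widens the SD. Nothing is therefore read from this. Depth limits CTH most, with 55 to 124 counts a library.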
